A study of Mus musculus with 4 samples.

Results

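Unattached embryoid bodies were compared with adherent cultures of the same mouse embryonic stem (ES) cell line, R1, by the RNA they held. The comparison uses 3 of the 4 arrays of the series, chosen by their titles: 2 embryoid body arrays, titled aggregation and suspension, and 1 adherent array, titled gelatin. The embryoid bodies were cultured for 48 hours without attachment. The adherent cells were kept on gelatin under conditions for undifferentiated proliferation. All 3 R1 cultures were in DMEM with beta-mercaptoethanol and LIF, a cytokine that sustains undifferentiated ES cells, so the embryoid bodies had not been taken off LIF. The fourth array, used here only for side values, held neurospheres, floating clusters of neural stem cells, from E13.5 telencephalon grown with FGF2. Its labels list astrocytes, glia and oligodendrocytes as contaminating cells.

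Embryoid bodies are clusters that ES cells form when they cannot attach. Cells on a surface hold it through integrins, paired membrane receptors that join the matrix outside to actin inside at focal adhesions. Integrins, matrix proteins and other membrane proteins are made, folded and disulfide-bonded in the endoplasmic reticulum before they reach the surface. In long culture without LIF the outer cells of embryoid bodies become endoderm and the inner cells give rise to ectoderm and mesoderm.

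The values are signal intensities from Affymetrix MG_U74Av2 arrays, scaled so that every array has a trimmed mean of 500. The 2 embryoid body arrays have the same sample identifier and description in the labels, and no label says whether their cultures were separate. The adherent group has 1 array, so both embryoid body differences share it, and its spread was taken to equal that of the others. The p-values rest only on the spread between the embryoid body arrays, which may be technical. With 1 residual and 32.9 prior degrees of freedom in limma, each SE comes mostly from the spread of features of like signal. It is thus not the gene's own spread between its 2 embryoid body values. Differences are embryoid body minus adherent on the log2(signal + 32) scale, on which changes of dim genes come out too small. In bulk RNA, fewer cells of a type and less RNA per cell cannot be told apart. The 10th percentile of signal was 17.7 on the adherent array against 30.9 and 35.2 on the embryoid body arrays. The 99.9th percentile was 25760.4 against 47333 and 41927, so the adherent array had lower values at both ends. The neurosphere array had 35.2 and 40895, near the embryoid body arrays, so the adherent array stood apart from all the others. The part of this in the differences was not tested. For Gapdh the ratio of 3' to 5' control signal was 0.880 and 0.893 on the embryoid body arrays against 0.804 on the adherent array. For actin it was 1.20 and 1.11 against 1.03.

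Of 6471 features tested, 5710 of them named genes, limma called 18 higher in embryoid bodies (0.278%) and 17 lower (0.263%) at a Benjamini-Hochberg adjusted p under 0.05. The called features included 16 named genes that rose and 17 that fell. At an unadjusted p under 0.05 there were 536 higher and 398 lower. As a description, 318 features (4.91%) were 2-fold or more above the adherent array in both embryoid body arrays and 164 (2.53%) were 2-fold or more below it, among them 271 and 153 named genes. This balance depended on the scaling. With quantile normalization 186 were 2-fold higher and 245 lower, and with scaling to the array median 145 were higher and 461 lower. The limma calls became 2 higher and 0 lower with quantile normalization, where 330 and 323 had an unadjusted p under 0.05, and 19 higher and 287 lower with median scaling. Of the 33 called named genes, 1, Uhmk1, kept its call with quantile normalization, and 0 kept it without the signal filter or without the intensity trend of limma, though the 33 kept their direction in all 10 alternative fits, except Rpl41, whose difference was 0.00 with quantile normalization. Each rise and fall below is a call at trimmed-mean scaling with these limits. Under all 3 scalings, 131 features were 2-fold higher and 155 were 2-fold lower.

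**Figure D1:**
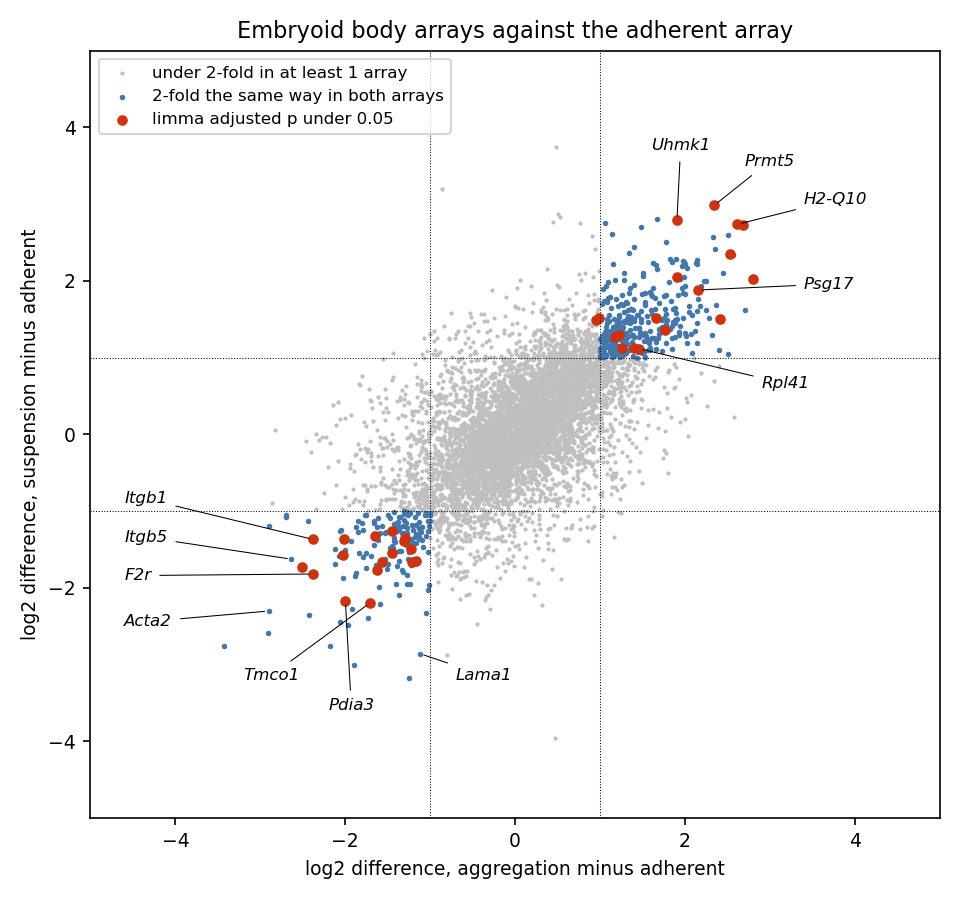
Each point is 1 of 6471 features, with its log2 difference from the adherent array on the aggregation array (x axis) and on the suspension array (y axis). Dotted lines mark 2-fold, blue points are 2-fold the same way in both arrays, and red points are the 35 features called by limma. Not every far point was called: Acta2, at -2.90 and -2.30, was not. Both axes subtract the same adherent array.

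The embryoid body arrays also differed from each other. Aggregation was at least 2-fold above suspension in 369 features and at least 2-fold below it in 450. In 9 features the arrays were 2-fold from the adherent array in opposite directions. Over all features, which are not independent replicates, log2 signals correlated at r = 0.904 between the embryoid body arrays, and at 0.884 and 0.878 between each of them and the adherent array. Just inside the 2-fold limit was Pgp, and just outside it was Ncs1, at 0.998 in its smaller difference. On the lower side Mecom was just inside and Dap, at -0.999, just outside.

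The falls with the smallest adjusted p were those of Pdia3, F2r, Itgb1, Tmco1 and Tmem131, and the plot of genes lower in embryoid bodies shows them beside listed genes of adhesion and the endoplasmic reticulum. Itgb1, the integrin beta 1 subunit that pairs with many alpha subunits to bind matrix, had a signal of 591 on the aggregation array, 1222 on the suspension array and 3209.8 on the adherent array. It fell, with a log2 difference of -1.87 ± 0.37 (SE), adjusted p = 0.0117 in limma. Both embryoid body values lay below the adherent one, and suspension was the nearer. The Itgb1 probe set is of a class that can also detect related transcripts. On the neurosphere array, also of floating cells, Itgb1 had 3829 and F2r 3966, above their adherent signals. Pdia3, Tmco1 and Tmem131 had 1992, 573 and 529 there, below theirs.

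**Figure D2:**
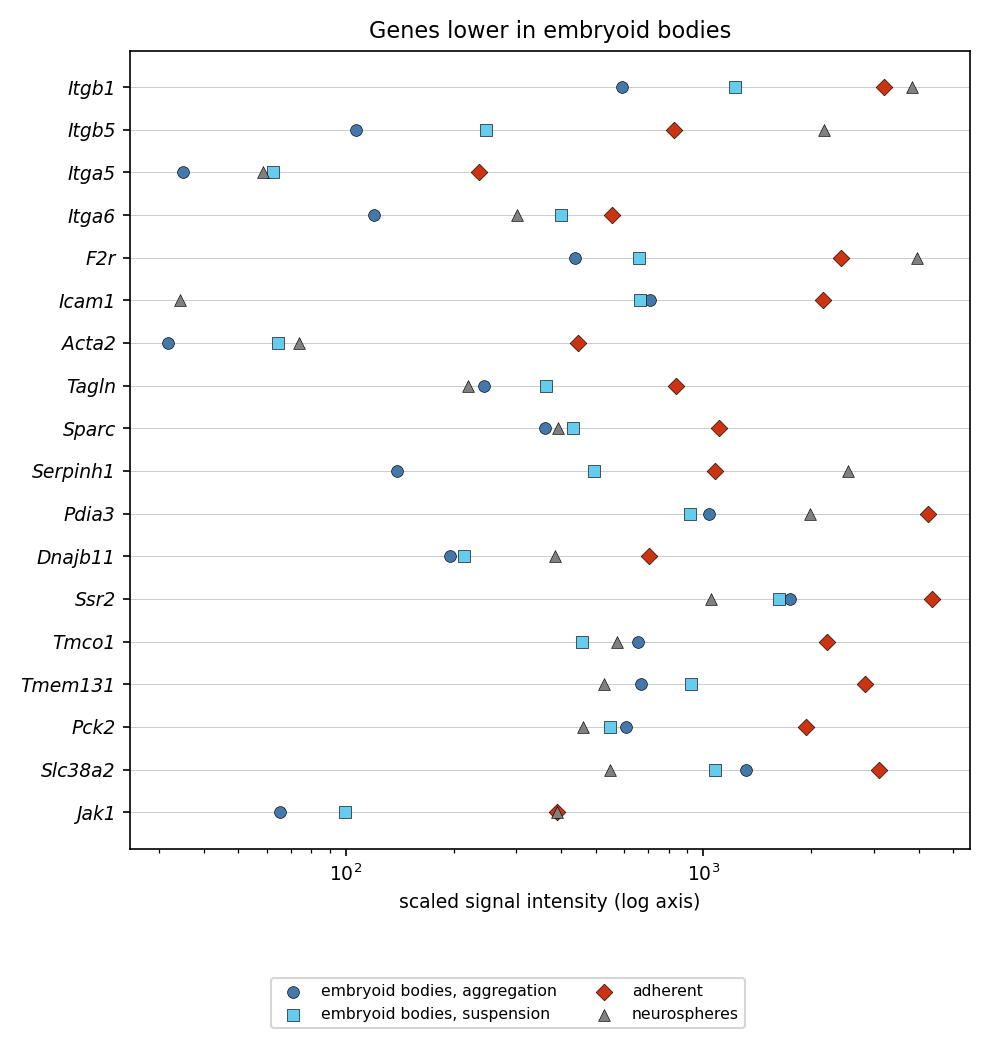
Scaled signal intensity (log axis) of 18 genes on each array, with 1 point per array and no error bars because each point is a single measurement. For every gene the adherent array (diamond) lies above both embryoid body arrays (circle and square), as for Pdia3 at 4245 against 1039 and 917.

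The other integrin subunits did not move as one. Of 12 tested, 4 were 2-fold lower in both arrays and 2 were 2-fold higher, against 2.53% and 4.91% of all features. By limma 1 was called lower and 0 higher, against 0.263% and 0.278%. The median difference was -0.68 against 0.08 over all features. Itgb5, a vitronectin-binding beta subunit, had signals of 106, 246 and 827 on aggregation, suspension and adherent arrays, with an adjusted p of 0.0814. Its other probe set had 94.3, 354 and 196, below the adherent signal on aggregation and above it on suspension. Itga5, the alpha partner of beta 1 in the fibronectin receptor, had 35, 62.6 and 236, and Itgb4, the hemidesmosome subunit, had 117, 84 and 324. Both Itga5 embryoid body signals and the Itgb4 suspension signal were below 100. In neurospheres Itgb5 had 2178, above its adherent signal, and Itga5 and Itgb4 had 58.6 and 54.1, below theirs. Itga6, a laminin-receptor subunit, had 120.0, 399 and 554, which was 2-fold lower on aggregation but not on suspension. In the other direction, Itga4 had 354, 262 and 73.1 and Itgal, a leukocyte subunit, had 303, 287 and 52, with adherent signals below 100. The other Itga4 probe sets had 102, 64.7 and 103, and 17.9, 12.7 and 34.2, neither of them higher in embryoid bodies. None of Itgb5, Itga5, Itgb4, Itga6, Itga4 and Itgal passed limma's test.

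Surface receptors beyond the integrins included F2r, the thrombin receptor PAR1. Its signal was 439 on the aggregation array, 662 on the suspension array and 2420.3 on the adherent array, and it fell with a log2 difference of -2.10 ± 0.38 (SE), adjusted p = 0.00695. This rested on 1 of its probe sets. The others had 453, 470 and 329 in the same array order, and 305, 253 and 295, and the mean of all 3 gave -0.58 with adjusted p = 0.617. Icam1, a cell adhesion molecule of the immunoglobulin family, had 709, 664 and 2164 and fell with a log2 difference of -1.61 ± 0.36 (SE), adjusted p = 0.0407. Its embryoid body signals were nearly the same on both arrays. Of 25 cadherin and junction genes, 3 were 2-fold lower and 0 higher, against 2.53% and 4.91% of all features, with a median of -0.51. The 3 were Icam1, Krt8 and Pkp1, none of them a cadherin. Pkp1 had 59.6, 49.2 and 170, with both embryoid body signals under 100. Cdh1, E-cadherin, was not among the lower ones: it had 1229, 956 and 551, adjusted p = 0.247.

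Actin-linked and matrix genes gave mixed values. Acta2, smooth muscle actin, had 31.9 on the aggregation array, 64.6 on the suspension array and 445 on the adherent array. Both embryoid body signals were near the low end of the arrays, and the difference of -2.60 ± 0.87 (SE) did not pass limma's test (adjusted p = 0.161). Tagln, the actin-binding transgelin, had 243, 364 and 836, and Actn4, the actin crosslinker alpha-actinin 4, had 1358, 1406 and 3322 with adjusted p = 0.0572. The list of 28 actin and contractile genes had 2 members 2-fold lower and 1 higher, with a median of 0.01, close to that of all features. Among 35 matrix genes 4 were 2-fold lower and 1 was higher, with a median of 0.08. Lama1, a laminin chain of early basement membrane, had 408, 99.8 and 925. Serpinh1, the collagen chaperone, had 139, 494 and 1077, and Sparc, a secreted matrix-binding protein, had 360.2, 432 and 1103. Col3a1, a fibrillar collagen, went the other way at 303, 198 and 43.7. None of these matrix genes was called.

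In the endoplasmic reticulum, Pdia3 had the smallest adjusted p of all genes that fell. Pdia3 is a disulfide isomerase that folds glycoproteins together with calnexin and calreticulin. Its signal was 1039 on the aggregation array, 917 on the suspension array and 4245 on the adherent array, and it fell with a log2 difference of -2.09 ± 0.33 (SE), adjusted p = 0.000591. The embryoid body signals were close to each other, and the adherent one was 4.24-fold above them on the scale with 32 added. Ssr2, a subunit of the translocon-associated complex, had 1744, 1633 and 4349.9 and fell with a log2 difference of -1.35 ± 0.30 (SE), adjusted p = 0.0407. Cnpy2, a resident protein of this compartment, had 1095, 1245 and 3037 and fell with a log2 difference of -1.35 ± 0.33 (SE), adjusted p = 0.0484. Tmco1, a membrane protein that lets calcium leave an overfilled store, had 655, 458 and 2212 and fell with a log2 difference of -1.95 ± 0.38 (SE), adjusted p = 0.0117. Selenot, a selenoprotein of the same compartment, had 997, 930.1 and 2782 and fell with a log2 difference of -1.50 ± 0.34 (SE), adjusted p = 0.0407.

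The list of folding genes held 37 tested members. Of these 4 were 2-fold lower and 0 higher, 25 were below the adherent array in both arrays and 5 above, and the median was -0.50. Over all 6471 features 2103 (32.5%) were below in both and 2656 (41.0%) above, which is the background for such counts in the other lists too. The list's median was -0.44 with quantile normalization and -0.84 with median scaling, against -0.01 and -0.25 for all features. Dnajb11, a co-chaperone, had 195, 214 and 705, and Ganab, a subunit of glucosidase II, had 1026, 1113 and 2308. Hspa5, the chaperone BiP, is a standard marker of unfolded-protein stress and is named after its values were seen. It had 1221, 2028 and 2124, so aggregation was the lower embryoid body array and suspension was near the adherent signal. Hsp90b1, another such chaperone and also chosen after its values were seen, had 3059, 3031 and 5438. Dnajb11, Ganab, Hspa5 and Hsp90b1 did not pass limma's test.

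Genes of amino acid supply were also among those that fell. Pck2, the mitochondrial PEP carboxykinase and a target of the stress-induced factor ATF4, had 606 on the aggregation array, 547 on the suspension array and 1936 on the adherent array, and it fell with a log2 difference of -1.69 ± 0.38 (SE), adjusted p = 0.0407. Slc38a2, a sodium-coupled transporter of neutral amino acids, had 1313, 1080.0 and 3109 and fell with a log2 difference of -1.36 ± 0.33 (SE), adjusted p = 0.0484. Of 22 tested genes of amino acid transport and ATF4 targets, 3 were 2-fold lower and 0 higher, 17 were below the adherent array in both arrays, and the median was -0.67. Cebpb, a transcription factor on the same list, had 411, 418 and 887 and was not called. Asns, asparagine synthetase, a much used ATF4 target named here after its values were seen, had 10237, 10760.2 and 11383, with adjusted p = 0.892.

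The start regions of these genes were searched for the motif of each pathway, and 3 genes that fell are shown, picked after the matches were seen. The sequences are RefSeq windows of GRCm38.p6, 250 bases before and 50 after the gene start, all on the + strand, at chr2:121413652-121413951 for Pdia3, chr14:55540016-55540315 for Pck2 and chr10:128322209-128322508 for Cnpy2. Capitals mark a match to TGATGNAA on either strand, the element bound by ATF4 and its partners.
Pck2: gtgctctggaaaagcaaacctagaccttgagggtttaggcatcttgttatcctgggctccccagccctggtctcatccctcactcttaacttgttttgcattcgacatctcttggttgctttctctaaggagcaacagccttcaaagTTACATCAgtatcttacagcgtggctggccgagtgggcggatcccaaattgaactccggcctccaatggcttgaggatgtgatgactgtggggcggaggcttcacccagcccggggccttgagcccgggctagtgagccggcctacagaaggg
Cnpy2: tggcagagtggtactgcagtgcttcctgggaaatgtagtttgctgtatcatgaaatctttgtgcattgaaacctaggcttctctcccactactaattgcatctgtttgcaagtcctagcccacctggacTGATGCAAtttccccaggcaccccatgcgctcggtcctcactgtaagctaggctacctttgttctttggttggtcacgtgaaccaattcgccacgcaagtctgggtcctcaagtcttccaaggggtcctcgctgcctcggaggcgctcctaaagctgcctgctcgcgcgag
Pdia3: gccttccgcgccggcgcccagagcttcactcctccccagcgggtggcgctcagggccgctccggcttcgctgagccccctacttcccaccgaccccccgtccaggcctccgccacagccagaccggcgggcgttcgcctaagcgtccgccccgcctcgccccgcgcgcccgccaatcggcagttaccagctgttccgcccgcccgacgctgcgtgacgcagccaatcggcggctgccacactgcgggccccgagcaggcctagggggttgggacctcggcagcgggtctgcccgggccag
The match began at -103 from the start in Pck2, on the - strand, and at -121 in Cnpy2, on the + strand. TGATGNAA was found in 7 of 19 windows of the amino acid and ATF4 list (36.8%) and in 1219 of 27025 genes with a window (4.51%). That list was made in part of ATF4 targets, so its share does not describe the genes that fell. Among 2-fold lower genes TGATGNAA was found in 5 of 121 (4.13%), near the share of all genes. Among genes called lower it was found in 2 of 13 (15.4%), which are the pair shown. A window was on hand for 121 of the 153 named genes that were 2-fold lower. Pdia3 is shown for the endoplasmic reticulum stress element, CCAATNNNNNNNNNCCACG on either strand, which has no exact match in its window. The window does hold ccaatcggcggctgccaca, which differs from that element in its last letter. Near matches were not searched for. That element was found in 37 of 27025 genes (0.137%), in 0 of 121 2-fold lower genes and in 5 of 33 folding genes (15.2%), namely Canx, Dnajc3, Hsp90b1, Hspa5 and Pdia6. A match describes the letters alone.

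Other genes that fell had varied roles. Tmem131, a membrane protein tied to collagen secretion, had 669, 926 and 2829 and fell with a log2 difference of -1.80 ± 0.35 (SE), adjusted p = 0.0117. Napsa, an aspartic protease of the cathepsin D family, had 263, 474 and 1643 and fell with a log2 difference of -2.12 ± 0.44 (SE), adjusted p = 0.0239. Cyb5r1, a cytochrome b5 reductase, had 439, 707 and 1867 and fell with a log2 difference of -1.69 ± 0.39 (SE), adjusted p = 0.0452. The Cyb5r1 and Otud4 probe sets can also detect related transcripts, and the other probe sets of Cyb5r1 gave -0.55 and 0.59. Cct8, a subunit of the cytosolic CCT chaperonin, had 1279, 924 and 3011 and fell with a log2 difference of -1.44 ± 0.34 (SE), adjusted p = 0.0452. Its partner subunit Tcp1 had 1082, 1149 and 524, the opposite direction, and was not called. Otud4, a deubiquitinase, had 736, 929 and 2384 and fell with a log2 difference of -1.49 ± 0.35 (SE), adjusted p = 0.0452. Tm7sf3 and Mrps34, a mitochondrial ribosomal protein, also fell, with differences of -1.33 and -1.41 and adjusted p of 0.0484 and 0.0479. Of 28 lysosome genes 20 were below the adherent array in both arrays, 1 was 2-fold lower and 0 were called, with a median of -0.49.

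Pluripotency genes, the defining markers of ES cells, were measured in all R1 arrays, with summed signals of 106073 on aggregation, 113029 on suspension and 109008 on the adherent array against 5376 in neurospheres. Of 25 tested, 0 were 2-fold apart in either direction, and the median was -0.15. Pou5f1, which encodes Oct4, had 7826 on the aggregation array, 10411 on the suspension array and 10270.3 on the adherent array, a difference of -0.19 ± 0.28 (SE). The suspension and adherent values were nearly the same. Nanog had 5532, 6152 and 6461, Zfp42, also called Rex1, had 3303, 3307 and 4829.6, and Klf4 had 2260.5, 4280.0 and 3363. Klf4 lay below the adherent signal on aggregation and above it on suspension. Dppa5a, an RNA-binding protein typical of pluripotent cells, had 24491, 23834 and 14928. None was called, which does not show that their levels were equal.

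The LIF pathway was measured at its receptor, kinase and targets. Of 18 genes, 2 were 2-fold lower, Icam1 and Jak1, and 0 higher, and the median was -0.12. Jak1, the kinase bound to the receptor, had 65.5, 99.3 and 390.5, adjusted p = 0.247. Il6st, the shared receptor subunit gp130, had 144, 444 and 724, and Socs3, the feedback inhibitor, had 316, 5730.2 and 597. Il6st and Socs3 were chosen after their values were seen. Socs3 on suspension was far above both other arrays, so its embryoid body arrays lay on opposite sides of the adherent one.

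Several markers of differentiated cells could not be tested. Afp, Fgf5 and Gata6 were below the signal filter, and T had no probe set in the annotation used. Of 28 listed streak and mesoderm genes 26 were on the array and 10 were tested. Of these 2 were 2-fold higher and 0 lower, with a median of 0.76 (0.48 with quantile normalization). Over all features 4.91% were 2-fold higher and the median was 0.08 (-0.01 with quantile normalization). Genes with symbols that begin with Olfr, chosen after values were seen, had a median of 0.83, with 2 of the 11 tested 2-fold higher. Mesp2, a factor of early mesoderm, had 546, 590.2 and 179, and Hand1, a factor of mesoderm and trophoblast, had 1027, 903 and 421. Gata4, a factor of endoderm, had 311, 206 and 86.8, while Sox17, another one, had 69.6, 74.2 and 166. Krt8, a keratin of simple epithelia, had 415, 514 and 1116. Among 21 endoderm genes 1 was 2-fold higher and 3 were lower, and those counts include Gata4, Krt8, Lama1 and Sparc. None of these marker genes was called. In neurospheres Mesp2 had 295, Hand1 964 and Gata4 365, above their adherent signals, and Sox17 and Krt8 had 115 and 173, below theirs. Over all 32 probe sets of the streak and mesoderm list the summed signals were 5969 on aggregation, 6312 on suspension and 3931 on the adherent array. In neurospheres the sum was 6407, so for this list the adherent array lay below all the others.

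Fibroblast and muscle genes were also listed, since cultures can hold other cells. Of 13 fibroblast genes tested 2 were 2-fold higher and 0 lower. The summed signal of all 33 probe sets of the fibroblast list, untested ones included, was 6511 and 6715 on the embryoid body arrays. On the adherent array it was 4794. Vim, vimentin, had 282, 473 and 119, and Col1a1, a fibrillar collagen, had 684, 254 and 288. Col1a1 was above the adherent signal on aggregation only. For all 25 probe sets of the muscle list the sums were 5504 and 4845 against 4500.2. Of 11 muscle genes tested 1 was 2-fold higher and 2 were lower, the latter Acta2 and Tagln. Of the neural list 15 genes were tested. The sums over all its 39 probe sets were 14863 and 14853 against 12810, and 78899 in neurospheres. The part of other cells in the differences was not tested.

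Among genes that rose, Uhmk1, a kinase that binds RNA and acts on stathmin, had the smallest adjusted p. Its signal was 4876 on the aggregation array, 9034 on the suspension array and 1278 on the adherent array, and it rose with a log2 difference of 2.35 ± 0.32 (SE), adjusted p = 5.66e-05. Its other probe sets had 198, 354 and 349, and 37, 65 and 11, and the mean of the pair that passed the signal filter gave 0.996 with adjusted p = 0.289. Prmt5, an arginine methyltransferase, had 469, 748 and 66.6 and rose with a log2 difference of 2.66 ± 0.56 (SE), adjusted p = 0.0247. Mapk8ip1, a scaffold of the JNK pathway, had 934, 532 and 106 and rose with a log2 difference of 2.41 ± 0.51 (SE), adjusted p = 0.0255. Its other probe set had 98.2, 136 and 32.7, also higher on both arrays. The adherent signals of Prmt5 and Mapk8ip1 were low, and the plot of genes higher in embryoid bodies shows them at the left. H2-Q10, a class I histocompatibility gene, had 434, 475 and 44 and rose with a log2 difference of 2.68 ± 0.63 (SE), adjusted p = 0.0452. Tcp10b had 567, 496 and 71.9 and rose with a log2 difference of 2.44 ± 0.57 (SE), adjusted p = 0.0452. The H2-Q10 and Tcp10b probe sets can detect more than 1 transcript of a gene family. On the neurosphere array Uhmk1 had 2379, Prmt5 93.3, Mapk8ip1 1287, H2-Q10 207 and Tcp10b 363, all above their adherent signals. For Prmt5 both the neurosphere and the adherent signal were under 100. Only Mapk8ip1 was also above both of its embryoid body signals.

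**Figure D3:**
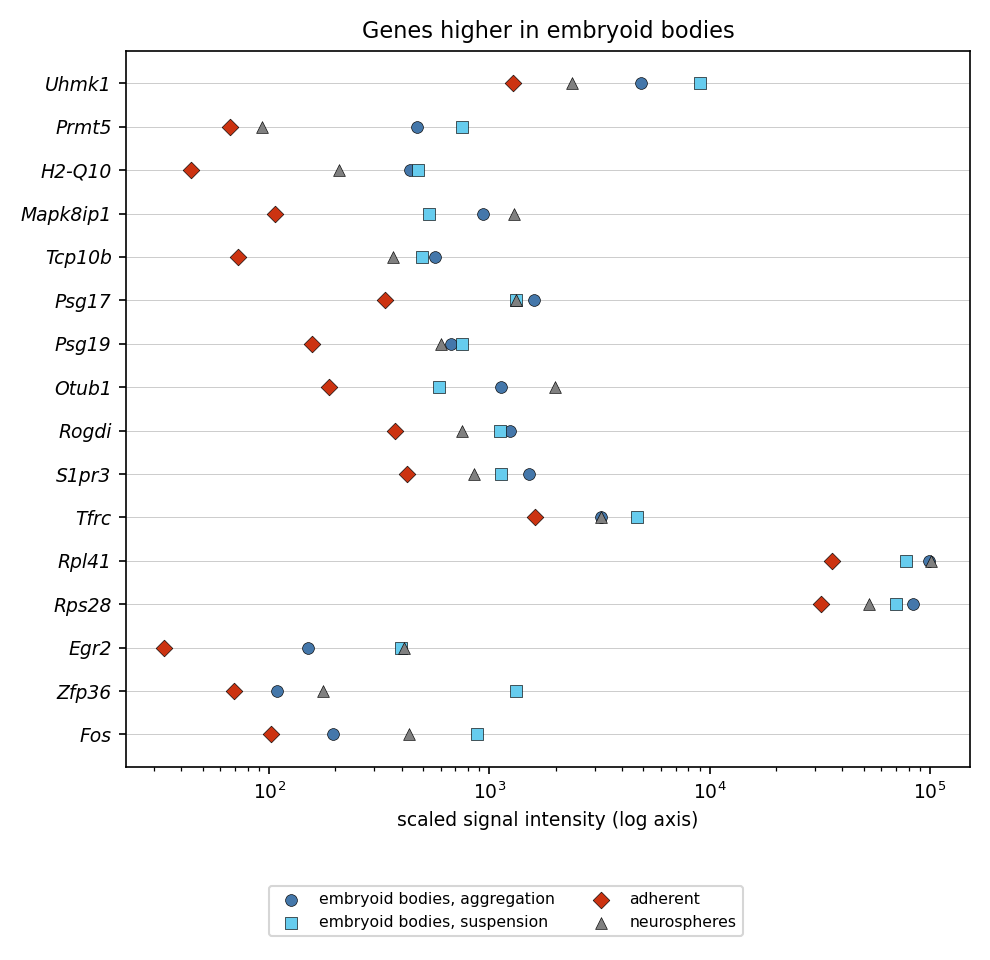
Scaled signal intensity (log axis) of 16 genes on each array, with 1 point per array and no error bars because each point is a single measurement. For every gene the adherent array (diamond) lies below both embryoid body arrays, as for Uhmk1 at 1278 against 4876 and 9034. Egr2, Zfp36 and Fos were not called.

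The pregnancy-specific glycoproteins Psg17 and Psg19, secreted members of a family known from trophoblast, were higher together. Psg17 had 1598, 1318 and 335 and rose with a log2 difference of 2.02 ± 0.38 (SE), adjusted p = 0.00797. Psg19 had 672, 747 and 156 and rose with a log2 difference of 1.98 ± 0.48 (SE), adjusted p = 0.0484. Neurospheres had 1320 for Psg17 and 603 for Psg19, well above the adherent signals and near those of the embryoid bodies. The Psg17 and Psg19 probe sets are both of the class that can detect related transcripts, so they may not be separate measurements. The other Psg19 probe set had 56.4, 194 and 58.5, so aggregation was level with the adherent array and only suspension was higher. Of 9 trophoblast genes tested, 1 was 2-fold higher and 1 lower. Otub1, a deubiquitinase, had 1127, 587 and 187 and rose with a log2 difference of 1.95 ± 0.47 (SE), adjusted p = 0.0484. The other Otub1 probe set had 68.9, 96.2 and 54.2, all under the filter of 100. Rogdi had 1241, 1120.2 and 371 and rose with a log2 difference of 1.59 ± 0.39 (SE), adjusted p = 0.0484. S1pr3, a receptor for sphingosine 1-phosphate, had 1513, 1127 and 421 and rose with a log2 difference of 1.56 ± 0.38 (SE), adjusted p = 0.0484. Nr5a1, Shkbp1, Tfrc and Gstm1 rose by 1.26, 1.22, 1.25 and 1.22, and Tfrc, the transferrin receptor, and Gstm1, a glutathione transferase, were not 2-fold on aggregation.

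The size of the difference in ribosomal protein genes depended on the scaling. Of 23 tested, 22 were above the adherent array in both arrays, 3 were 2-fold higher and 2 were called. Rpl41 had 98751 on the aggregation array, 77939 on the suspension array and 35908 on the adherent array and rose with a log2 difference of 1.29 ± 0.30 (SE), adjusted p = 0.0452. Rps28 had 84029, 69777 and 31887 and rose with a log2 difference of 1.26 ± 0.30 (SE), adjusted p = 0.0452. With quantile normalization the differences were 0.00 for Rpl41 and 0.21 for Rps28, and the median of the list went from 0.69 to 0.19. With median scaling it was 0.34, when that of all features was -0.25. Rpl41 and Rps28 are among the brightest genes, where the adherent array had lower values, and the part of that in their rise was not tested. Their probe sets can also detect related transcripts, and the other probe set of Rps28 had 49746, 42030.4 and 24503, which was 2-fold on aggregation only. Rps20, the other 2-fold member, was dim, at 334, 248 and 90.9, and was not called.

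Immediate early genes, which respond within minutes to stimuli or handling, had a summed signal of 28536 on aggregation, 37622 on suspension and 24548 on the adherent array. Of 26 tested, 15 were above the adherent array in both arrays, 1 was 2-fold higher in both and 0 were called. Egr2, a zinc finger factor, had 150.4, 395 and 33.5. Zfp36, which destabilises short-lived RNAs, had 109, 1318 and 69.1, and Fos, chosen after its values were seen, had 195, 877 and 102. For Zfp36 and Fos the aggregation signal was nearer to the adherent than to the suspension signal. Of 19 genes of glycolysis and glucose transport 0 were 2-fold apart in both arrays and 10 were above the adherent array in both, with a median of 0.42. These counts stand beside the 41.0% of all features that were above it in both. Of 40 cell cycle genes 1 was 2-fold higher and 2 were lower, with a median of 0.00. The higher one was E2f1, at 419, 414 and 185. Its other probe set had 54.8, 53.9 and 161, 2-fold lower in both arrays. Gadd45a, a growth arrest gene, had 1014, 1112 and 2668, adjusted p = 0.0572, and Mki67, a proliferation marker, had 678, 671 and 1395.

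**Figure D4:**
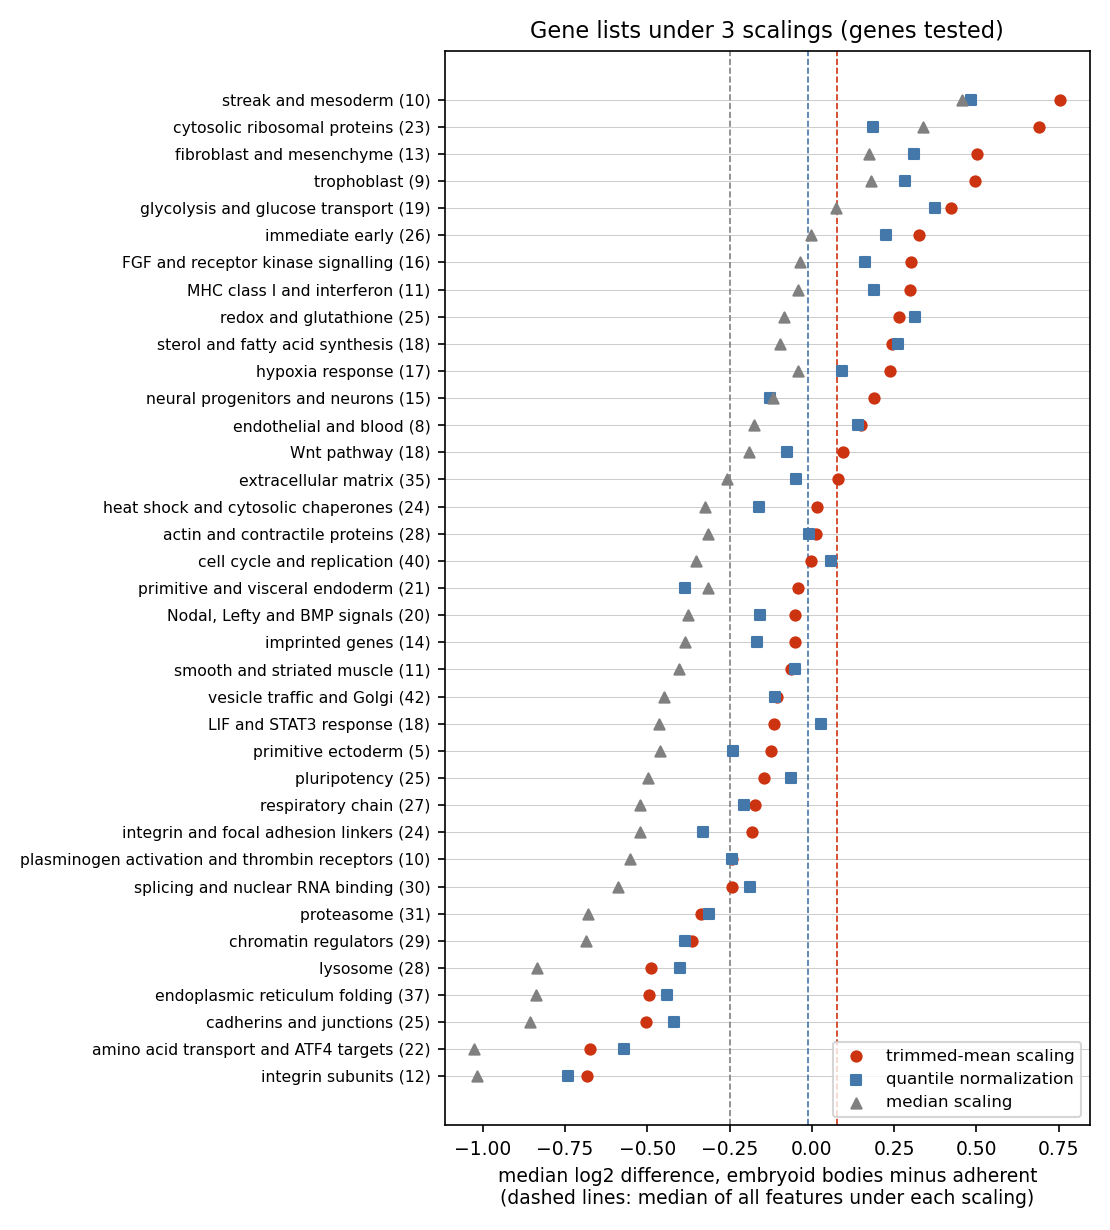
Median log2 difference (embryoid bodies minus adherent) of the tested members of 37 gene lists, with the number tested in brackets, under 3 scalings; dashed lines give the median of all features under each. Integrin subunits (-0.68) and amino acid genes (-0.67) lie lowest, and streak and mesoderm (0.76) and ribosomal protein genes (0.69) highest, at trimmed-mean scaling.

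Signal level moved with the direction of the differences. Of the 318 features 2-fold higher, 148 had an adherent signal under 100, and 170 had at least 100 on all 3 arrays. Of the 164 lower ones, 48 had both embryoid body signals under 100, and 96 had at least 100 on all 3 arrays. With all signals at least 100, 44 features were 2-fold higher and 87 lower under all 3 scalings. In the lowest sixth of features by average signal 125 were 2-fold higher and 49 lower, and in the highest sixth 9 and 24. The dimmer genes were thus more often among the higher ones at trimmed-mean scaling, as the plot by signal level shows. Among 2-fold genes with another probe set that passed the filter, all others pointed the same way in 10 of 20 higher genes and 7 of 15 lower genes. Another probe set was itself 2-fold for 0 higher and 2 lower genes, Abca1, a cholesterol exporter, and Tmed7, a cargo receptor of early secretion, named after their values were seen. Ubxn11, also named after its values were seen, was counted as higher at 542, 548 and 193 but had a passing probe set 2-fold lower, at 56.5, 52.5 and 307. Counting probe sets below the filter too, 2 higher genes and 1 lower gene had another that was 2-fold the other way.

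**Figure D5:**
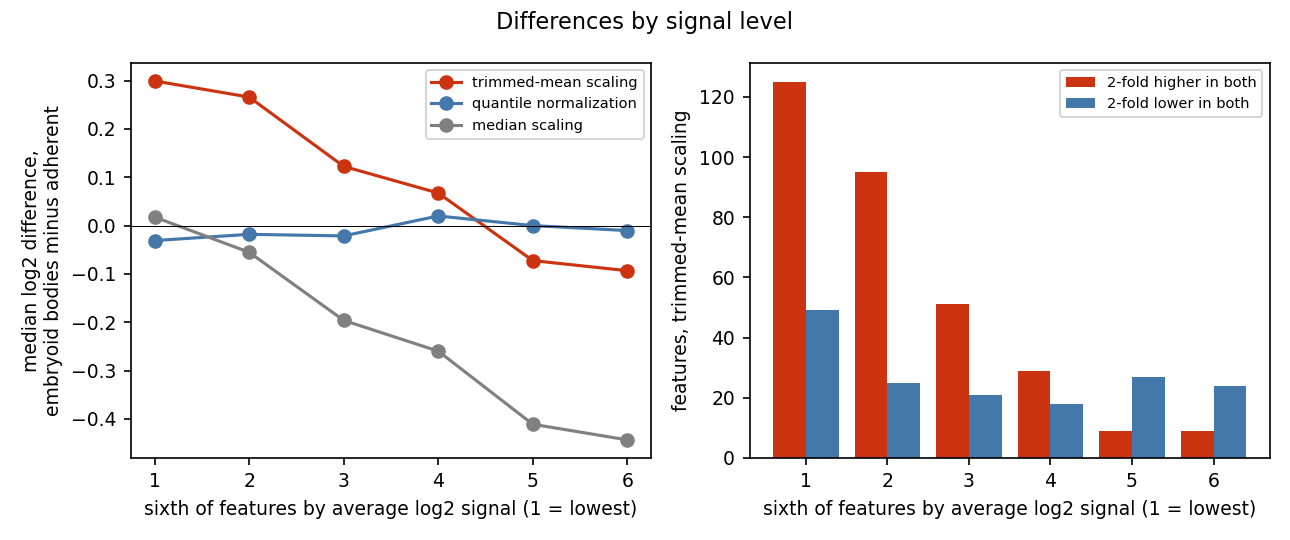
Left, median log2 difference (embryoid bodies minus adherent) in sixths of the features ordered by average log2 signal, under 3 scalings; right, number of features 2-fold higher or lower in both arrays at trimmed-mean scaling. The median falls from 0.30 in the dimmest sixth to -0.09 in the brightest at trimmed-mean scaling and stays near 0 with quantile normalization.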

How the data were processed

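Total RNA of 4 mouse samples was hybridised to MG_U74Av2 arrays, 1 sample per array. The deposited values are linear signal intensity per probe set, computed with MAS5 per the submitters' processing notes; the sources used here do not state its version, scaling target or settings. The deposited trimmed means were 32.9 on the aggregation array and 30.0 on the neurosphere array. They were 1504 on the suspension array and 1551 on the adherent array. The 2 embryoid body arrays were thus deposited on different scales, with suspension near the adherent array. The part of this in the differences was not tested. No detection calls were used. Of 12488 probe sets, 66 AFFX controls and 901 ending in _r_at were left out. The platform annotation paired 10094 of the other 11521 with 1 gene, 372 with several and 1055 with none, and 10080 were found in a RefSeq gene table. Signals were scaled to give every array a trimmed mean of 500 (2% left out at each end), and 32 was added before log2. Probe sets were kept when the average of the group means reached 100 (7391), and each gene took its brightest probe set. limma 3.58.1 in R 4.3.3, with an intensity trend, was fitted to the 3 R1 arrays (residual df 1, prior df 32.9), with two-sided p-values adjusted by Benjamini-Hochberg over 6471 features. The code was tested on simulated data. A 2-fold feature has a difference of at least 1 on the log2 scale, the same way in both embryoid body arrays.

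Named genes were the 12 largest called 2-fold rises and falls, up to 3 2-fold members of each list each way (or the brightest member), and set markers. The comparison, the 37 lists and the rules were chosen with earlier results of these data known. No p-value is given for a list, and no test was made on the choice of genes. The alternatives were other scalings, added values, filters, probe set rules, fits and leaving out an embryoid body array.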

Additional observations from a re-analysis of the deposited data

How the results depend on the processing

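Against 18 called higher and 17 called lower, the counts were 2 and 0 with quantile normalization, 19 and 287 with median scaling, 5 and 6 with 8 added before log2, 25 and 35 with 100 added, 1 and 0 with no signal filter (643 and 421 at an unadjusted p under 0.05), 3 and 4 with a filter at the array median, 51 and 37 with _r_at probe sets kept, 1 and 1 with the mean of probe sets, 0 and 0 with no intensity trend (424 and 238 unadjusted) and 4 and 5 with all 4 arrays fitted. The 33 called named genes kept their direction in these 10 alternatives in limma, except Rpl41 at 0.00 with quantile normalization, but 0 of the 33 kept their call with no filter or with no intensity trend. Leaving out an embryoid body array leaves no residual degree of freedom and no test.

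For the counts of genes 2-fold higher in both embryoid body arrays and genes 2-fold lower in both embryoid body arrays, which were 318 and 164 features, quantile normalization gave 186 and 245, median scaling 145 and 461, 100 added 158 and 107, and no filter 555 and 212. Leaving out 1 embryoid body array gave 620 to 706 higher and 472 to 494 lower. Small differences changed sign: Mt2 to -0.22 with quantile normalization and -0.086 with median scaling, Klf4 to 0.055 with quantile normalization, and Fgf4 to -0.11 with median scaling. Leaving out 1 embryoid body array gave -0.053 to 0.59 for Mt2, -0.57 to 0.35 for Klf4, -0.39 to 0.020 for Pou5f1 and -0.16 to 1.16 for Col1a1, changing sign without the aggregation array. The cause of these changes was not tested. No paired analysis was possible because the adherent group has 1 array and the sample descriptions name no pairs. Signals under 100 were not told apart from background, and single arrays limit every value.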
